A study of Arabidopsis thaliana with 24 samples.

Results

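The comparison described here is the removal of the N-terminal part of DXO1 in a protein that keeps its catalytic site. It sets 4 libraries of the truncated active line against 4 libraries of the full-length active line, which is 8 of the 24 libraries of the series. Members were taken by sample title. The truncated active line is the Arabidopsis thaliana mutant dxo1-2 with a transgene for DXO1 lacking its N-terminal part (written ΔN194 in the labels). The full-length active line is dxo1-2 with the unaltered protein. The 35S promoter, a strong promoter active in most cell types, drove both transgenes, and both lines carry the dxo1-2 mutation. For context, 4 other groups of 4 libraries were used: the truncated and the full-length line with the substitutions E394A and D396A in the catalytic site, the mutant dxo1-2 without a transgene, and the wild type Col-0. All plants were 21 days old and grown on soil in long days, and RNA came from whole plants. The labels name 1 line per construct, so a line and its construct cannot be told apart, and they do not say whether the libraries of a group came from separate plants. The p-values therefore measure the spread between these libraries, which may be technical.

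DXO1 belongs to the DXO/Rai1 family of enzymes that act on the 5' ends of RNA, for example by removing an NAD cap. The plant protein differs from its animal and fungal relatives by an N-terminal extension, which is known to contact the mRNA cap methyltransferase RNMT1. Plants without DXO1 are known for slow growth, pale leaves and active defence genes. Reads of the assay start from the poly(A) tail, so a count stands for a 3' end of a transcript and not for its length. Levels are CPM, counts scaled to the library size after TMM normalization. Changes are log2 fold changes of the truncated active over the full-length active line from edgeR, and a gene was called where its p, adjusted by Benjamini-Hochberg, was under 0.05 over 13592 tested genes.

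Several groups that changed belong to gene families with known promoter motifs, and the start-proximal 250 bases of 3 of these genes are shown, read 5' to 3' on the gene's strand from assembly TAIR10.1. They were chosen after matches and values had been seen, as examples that hold the motif, 1 of a gene that fell and 2 of genes that rose in the truncated line. Capitals mark, on either strand, the motifs named here for each gene. Left in lower case are 1 site II match in RD29A and 1 W-box match in FIB1, out of 6 motifs searched. RD29A, a dehydration and cold marker gene (chr5:21240467-21240716, plus strand), holds 3 copies of the drought-responsive element core CCGAC, the site of the CBF and DREB factors, beginning 140, 90 and 33 bases before the annotated start. FIB1 encodes fibrillarin, which methylates ribosomal RNA in the nucleolus (chr5:21293897-21294146, plus strand). Its window holds the telo-box core AACCCTA at 206 bases and the site II motif TGGGCC at 163 and 148 bases. AT3G22230 encodes a protein of the large cytosolic ribosomal subunit (chr3:7844598-7844847, minus strand), with a telo-box core at 23 and site II motifs at 83 and 55 bases.
RD29A: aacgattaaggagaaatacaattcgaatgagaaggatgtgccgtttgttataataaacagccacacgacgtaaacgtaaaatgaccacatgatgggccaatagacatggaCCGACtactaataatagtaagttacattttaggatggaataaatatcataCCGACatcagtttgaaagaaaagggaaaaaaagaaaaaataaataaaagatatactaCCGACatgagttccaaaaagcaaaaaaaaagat
FIB1: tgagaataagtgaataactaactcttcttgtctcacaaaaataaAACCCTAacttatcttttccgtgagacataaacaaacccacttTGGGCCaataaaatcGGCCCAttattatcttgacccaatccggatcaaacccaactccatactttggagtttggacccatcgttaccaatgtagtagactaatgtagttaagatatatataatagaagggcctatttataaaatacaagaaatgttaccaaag
AT3G22230: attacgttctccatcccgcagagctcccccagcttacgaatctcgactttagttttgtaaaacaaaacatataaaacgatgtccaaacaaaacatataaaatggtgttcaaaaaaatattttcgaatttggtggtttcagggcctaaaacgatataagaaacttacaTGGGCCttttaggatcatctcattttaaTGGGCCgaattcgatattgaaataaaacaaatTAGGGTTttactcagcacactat

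Total counts ran from 1626339 to 2545682 in the truncated active libraries and from 2252639 to 3490594 in the full-length active libraries, within 1270033 to 3490594 over the series. Between 16641 and 19273 genes had at least 1 count in a library. Replicates 2 and 4 of the truncated active line stood apart: their mean correlation of log2 CPM with the other libraries of their group was 0.898 and 0.888, against 0.937 and 0.941 for replicates 1 and 3 and 0.962 to 0.971 in the full-length active line. The lowest value of the series was in a context group. Full-length substituted replicate 3 had 0.871, against 0.907 to 0.923 for the other libraries of that line. Exon length here is the summed length of all exons of a gene's longest transcript. A library's deviation from the gene-wise mean over all 24 libraries was set against it by rank correlation. The correlation was 0.24, 0.49, -0.05 and -0.40 in truncated active replicates 1 to 4, and 0.19 to 0.50 in the full-length active libraries. Genes with a short total exon length were called higher more often, 29.6% of the shortest class against 7.05% of the longest, of 4 equal classes. The part of exon length in the results was not tested, and values with this length trend removed are given for the ribosomal genes and for the counts of calls. Leaf genes dominated, with LHCB1.3 of the light-harvesting complex at 17054 ± 3372 CPM in the truncated and 25895 ± 3294 CPM in the full-length line (SD, n = 4 each), while 6 of 8 root markers had too few counts to be tested in these plants.

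Reads of DXO1 (AT4G17620) were fewer in the truncated line. They came to 5.99, 1.98, 4.41 and 5.42 CPM in truncated active replicates 1 to 4, and to 13.4, 10.9, 13.0 and 11.3 CPM in full-length active replicates 1 to 4. The groups did not overlap, and the log2 fold change was -1.49 (SE 0.29, adjusted p = 0.000215). DXO1 averaged 5.14 ± 1.71 CPM in the truncated substituted line and 18.4 ± 2.43 CPM in its full-length counterpart (SD, n = 4 each). The mutant dxo1-2 had 3.36 ± 0.645 CPM and Col-0 15.6 ± 2.97 CPM (SD, n = 4 each). Both truncated lines thus lay nearer to the mutant than to their full-length lines in counts at this locus. Which part of the gene each transgene carries at its 3' end is not given in the labels, so fewer transcripts and fewer transcripts with a countable 3' end cannot be told apart, and neither can be separated from the truncation of the protein.

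**Figure D1:**
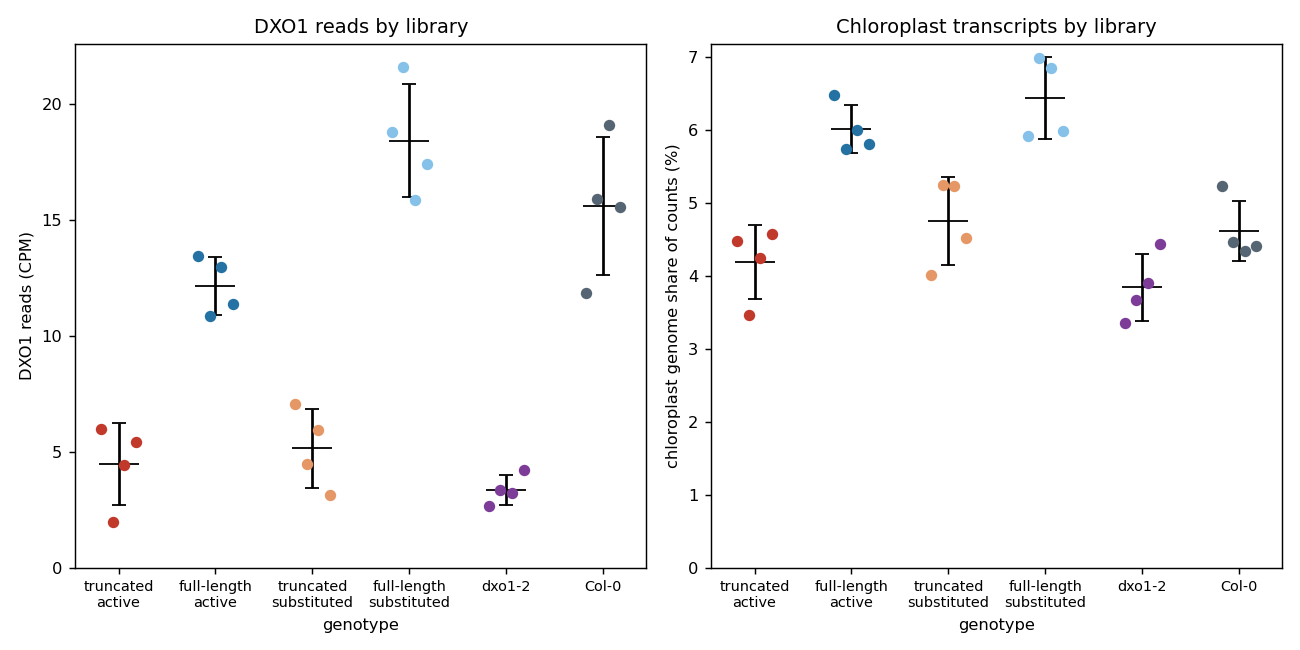
Level of DXO1 in CPM and the share of counts from chloroplast genes in percent, for each library of the 6 groups, with the mean and SD of 4 libraries; each truncated or mutant group stands left of the group it is set against. The truncated active libraries hold 1.98 to 5.99 CPM of DXO1 and the full-length active libraries 10.9 to 13.4 CPM.

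The truncation went with a broad change. Of the 13592 genes, 4058 were called (29.9%), 2364 higher (17.4%) and 1694 lower (12.5%) in the truncated line. A change of at least 2-fold was seen in 1563 of the higher and 906 of the lower genes. The CPM values of the 2 lines did not overlap for 4050 genes (29.8%), of which 3378 were also called, and the median log2 fold change over all genes was 0.00. These shares are the background against which the gene groups below are read. The groups and their members were chosen with earlier results of these data known, so their counts are descriptions.

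PR1, the salicylate-induced defence marker, had the highest fold change among genes without overlap. It stood at 237, 102, 253 and 481 CPM in the truncated active libraries, against 1.22, 0.543, 1.02 and 0.84 CPM in the full-length active libraries (log2 fold change 8.16, SE 0.68, adjusted p = 7.06e-10). XTH31, a xyloglucan-modifying cell wall enzyme, had 299, 215, 291 and 225 CPM in the truncated and 9.75, 8.42, 5.80 and 10.1 CPM in the full-length libraries (4.92). ELIP1 and ELIP2, light-stress proteins of the thylakoid, rose by 5.38 and 5.41 on the log2 scale. AT2G15020 gave 174 counts in the truncated libraries together and 1 in the full-length libraries, a ratio of 212 with a 95% counting interval of 37.5 to 8411. At the other end, MYB74, a stress-related MYB factor, had 0 counts in all truncated active libraries and 5.04 to 9.77 CPM in the full-length libraries, at least 22.5-fold lower against a floor of 3 counts over the group. ATBFRUCT1, a cell wall invertase, and HVA22E, a gene known to respond to abscisic acid, fell by 4.54 and 4.37 on the log2 scale. EXPA16, an expansin that loosens the cell wall, had 3.30 to 4.82 CPM in the truncated and 56.5 to 91.8 CPM in the full-length libraries (-4.18).

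Genes of the cytosolic ribosome rose nearly as a whole. Of 113 tested genes for large-subunit proteins, 110 were called higher and none lower, with a median log2 fold change of 1.47 against 0.00 over all genes. Of 85 for the small subunit, 79 were called higher and none lower, with a median of 1.25. AT1G70600, a large-subunit gene, averaged 565 ± 51.6 CPM in the truncated and 97.2 ± 6.75 CPM in the full-length line (SD, n = 4 each; log2 fold change 2.54, SE 0.14, adjusted p = 2.7e-13). AT3G22230, whose promoter is printed above, had 552, 425, 636 and 732 CPM in the truncated and 108, 106, 101 and 113 CPM in the full-length libraries (2.45). UBQ5, a ubiquitin fused to a small-subunit protein, averaged 732 ± 99.1 CPM in the truncated and 220 ± 4.88 CPM in the full-length line (1.74). EMB2296 was the most abundant of the large-subunit genes, with 994 ± 67.4 CPM in the truncated and 322 ± 40.4 CPM in the full-length line (SD, n = 4 each). RPL3B had 5.35 ± 1.99 CPM in the truncated and 8.50 ± 1.52 CPM in the full-length line and was not called (-0.69, adjusted p = 0.195). With the length trend removed, 108 large-subunit and 76 small-subunit genes were called higher, with medians of 1.28 and 1.06. Many ribosomal proteins are encoded by near-identical gene pairs, and how shared reads were counted is not given in the sources used here, so single genes are less certain than the group.

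Nucleolar and assembly factors of the ribosome moved with them. Of 30 tested nucleolar and assembly factors, 17 were called higher and none lower, with a median of 1.22. FIB1 had 277, 263, 288 and 276 CPM in the truncated and 53.2, 61.9, 55.6 and 64.3 CPM in the full-length libraries (log2 fold change 2.23, SE 0.15, adjusted p = 1.27e-11). Every truncated library lay far above every full-length library. FIB2, the second fibrillarin, rose by 2.66 and CBF5, the pseudouridine synthase of the nucleolus, by 2.17 on the log2 scale. Of 16 capping, cap-binding and decapping genes, 2 were called higher, namely the cap-binding factors EIF4E1 (1.58) and EIFISO4E (0.78), and none lower. Among 6 tested genes of small RNA silencing, SE, which assists miRNA processing, was the 1 called gene (1.24). Of 15 factors that mature plastid ribosomal RNA, 3 were called higher, among them the RNA helicase RH3, with 291 ± 40.2 CPM in the truncated and 133 ± 16.0 CPM in the full-length line (1.12). The counts for the capping, small RNA and plastid groups lie near the 17.4% of all genes called higher. They are therefore no result about those groups.

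The site II motif and the telo-box are known from promoters of ribosomal protein genes in plants. Within 250 bases before the annotated start, on either strand, site II (TGGGCC) was held by 22.04% of the genes called higher and 10.9% of those called lower, against 17.9% of all 13505 tested genes with a promoter. It was held by 69 of 113 large-subunit genes (61.1%), 44 of 85 small-subunit genes (51.8%) and 17 of 30 nucleolar genes (56.7%). The telo-box core (AACCCTA) was held by 7.445% of the genes called higher, 3.13% of those called lower and 5.11% of all. It stood in 30 large-subunit (26.55%) and 15 small-subunit promoters (17.65%). The genes called higher include the 110 large-subunit and 79 small-subunit genes, and their shares without these were not computed. The excess over all genes is therefore not shown to hold for other rising genes. These shares are descriptions with no test, and neither motif contains the other.

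**Figure D2:**
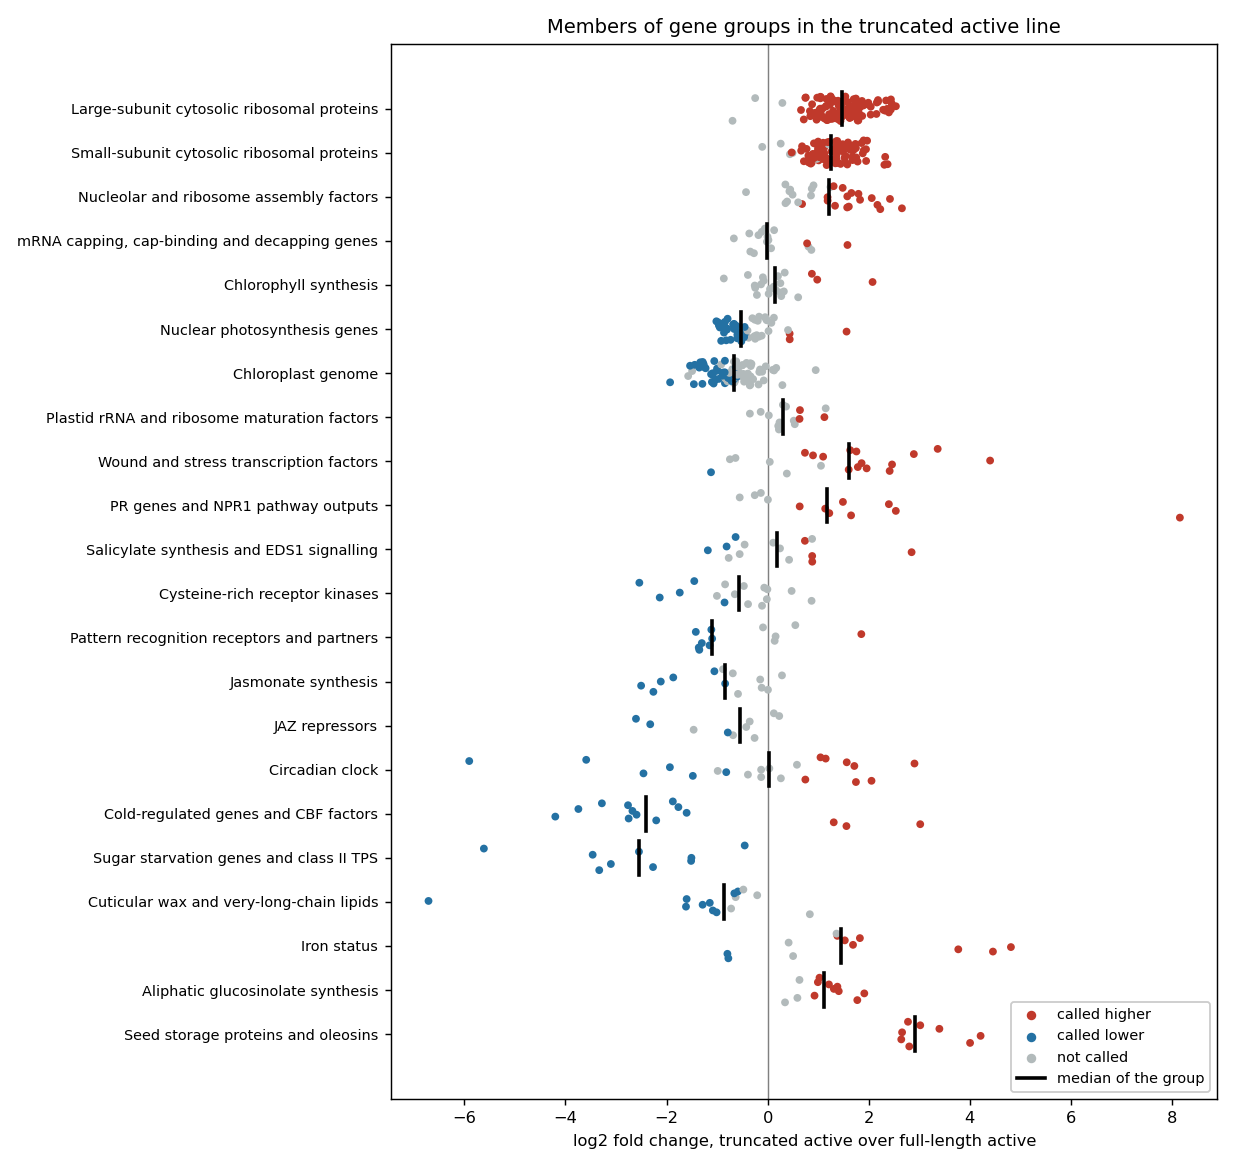
Log2 fold change of the truncated active over the full-length active line for each tested member of 22 gene groups, 1 point a gene, with a bar at the group's median and colours for genes called higher, lower or not called. Ribosomal protein genes lie almost wholly above 0, with medians of 1.47 and 1.25, and the sugar starvation group lies wholly below 0.

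Nuclear photosynthesis genes were mostly lower by small amounts. Of 49 tested, 28 were called lower, 3 higher and 18 not, with a median of -0.52, and the 2 lines did not overlap for 31 genes lower in the truncated line. LHCA2 of the photosystem I antenna had 3364, 2842, 3524 and 3283 CPM in the truncated and 6034, 5960, 6666 and 5948 CPM in the full-length libraries (log2 fold change -0.92, SE 0.12, adjusted p = 7.64e-07). PSBW, a small photosystem II subunit, fell by 1.01 on the log2 scale, the largest fall of this group. RBCS1B, a minor Rubisco small-subunit gene, went the other way, with 2084, 2012, 1847 and 1493 CPM in the truncated and 660, 629, 554 and 676 CPM in the full-length libraries (1.56), while the major copy RBCS1A fell by 0.55 on the log2 scale. Copies of the Rubisco and light-harvesting genes are alike in sequence, so their split is uncertain. RCA, the Rubisco activase, spread from 569 to 3442 CPM in the truncated line, against 1040 to 1654 CPM in the full-length line, and was not called.

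Of 22 chlorophyll synthesis genes, 3 were called higher and none lower, with a median of 0.14. The count called higher lies near the 17.4% of all genes and is no result about this group. GUN4, which assists magnesium chelatase, had 622, 524, 703 and 743 CPM in the truncated and 148, 149, 155 and 162 CPM in the full-length libraries (log2 fold change 2.08, SE 0.16, adjusted p = 3.27e-10). The groups lay far apart. CRD1, the cyclase, and CAO, which makes chlorophyll b, rose by 0.98 and 0.88 on the log2 scale, while the other 19, the chelatase subunits included, were not called.

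Transcripts of the chloroplast genome took a smaller share of the counts in the truncated line. Chloroplast transcripts carry no stable poly(A) tail, so their reads in this assay may start from short tails or internal runs of A. The share was 4.47%, 3.46%, 4.25% and 4.57% in the truncated active libraries and 6.47%, 5.74%, 6.00% and 5.81% in the full-length active libraries, a difference of -1.82 percentage points in means (two-sided exact permutation p = 0.0286, the smallest that 4 against 4 libraries can give). Col-0 had 4.34% to 5.23%, so the full-length active libraries lay above the wild type and the truncated libraries between 3.46% and 4.57% overlapped its lower end. Of 80 tested chloroplast genes, 35 were called lower and none higher, with a median of -0.67. Without truncated active replicates 2 and 4, which were left out after the data had been seen, 18 were called lower. ATCG00120 had the lowest value of the group, with 21.1 ± 4.01 CPM in the truncated and 80.1 ± 17.3 CPM in the full-length line (SD, n = 4 each; log2 fold change -1.93). None of 6 tested mitochondrial genes was called by edgeR, where 1 had an unadjusted p under 0.05, and DESeq2 called 1 of the 44 it fitted.

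Defence genes split by role. Salicylate is a defence hormone whose perception by NPR proteins induces PR genes. Of 12 tested PR genes and NPR1 outputs, 8 were called higher and none lower, with a median of 1.18. PR2, a glucanase, averaged 148 ± 27.1 CPM in the truncated and 47.1 ± 6.71 CPM in the full-length line (SD, n = 4 each; log2 fold change 1.65). PR5 rose by 1.22 and NIMIN1, an NPR1 interactor, by 2.54 on the log2 scale. WRKY54 had 169, 121, 154 and 164 CPM in the truncated and 48.4, 55.4, 54.6 and 57.6 CPM in the full-length libraries (1.49). Upstream of these, 4 of 14 genes of salicylate synthesis and EDS1 signalling were called higher, 3 lower and 7 not, with a median of 0.18. SARD1, an activator of salicylate synthesis, was among the lower ones, with 15.0, 17.9, 15.8 and 22.9 CPM in the truncated and 32.9, 39.9, 31.1 and 58.0 CPM in the full-length libraries (-1.18). For SARD1 the full-length active line stood apart, with a mean of 40.5 CPM against 17.9 CPM in the truncated active line. The mean was 20.9 CPM in Col-0, 23.3 CPM in dxo1-2, 16.0 CPM in the truncated substituted and 17.4 CPM in the full-length substituted line.

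Genes for receptors of the cell surface were lower or not called, with 1 exception. Of 12 pattern recognition receptors and partners, 7 were called lower, 1 higher and 4 not, with a median of -1.11. BAK1, the shared co-receptor, had 22.4, 26.1, 23.9 and 21.7 CPM in the truncated and 55.3, 50.5, 48.1 and 56.3 CPM in the full-length libraries (log2 fold change -1.15, SE 0.18, adjusted p = 1.42e-05). The flagellin receptor FLS2 and the EF-Tu receptor EFR fell by 1.35 and 1.36 on the log2 scale. The exception was LYK5, a chitin receptor, with 20.5 to 41.0 CPM in the truncated and 5.12 to 12.2 CPM in the full-length libraries (1.85). Among 16 cysteine-rich receptor kinases, 5 were called lower, none higher and 11 not, with a median of -0.56. CRK41 had 14.0, 20.2, 18 and 16.9 CPM in the truncated and 86.6, 105, 94.2 and 120 CPM in the full-length libraries (-2.54). Of 8 NLR genes, which encode intracellular immune receptors, 1 was called, and higher. That count lies near the 17.4% of all genes called higher and is no result about the NLR genes.

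Jasmonate is the hormone of the wound response. Of 13 tested genes of its synthesis, 6 were called lower and none higher, with a median of -0.84. AOC1, an allene oxide cyclase, had 43.9, 20.2, 57.3 and 57.2 CPM in the truncated and 309, 233, 243 and 221 CPM in the full-length libraries (log2 fold change -2.50, SE 0.30, adjusted p = 2.82e-07), with the caveat that its 4 copies are alike in sequence. OPR3, the reductase of the pathway, had 26.4, 27.1, 36.4 and 45.8 CPM in the truncated and 167, 119, 84.0 and 123 CPM in the full-length libraries (-1.87). JAR1, which forms the active conjugate, fell by 1.05 on the log2 scale. Of 10 JAZ repressor genes, 3 were called lower and none higher, and of 14 output and catabolism genes 4 were called higher and 3 lower, with a median of -0.06. VSP2, a storage protein induced by jasmonate, spread over 28.9, 6.61, 31.9 and 7.23 CPM in the truncated and 7.72, 2.44, 3.41 and 0.84 CPM in the full-length libraries, so the groups overlapped (2.39, adjusted p = 0.00763). Its mean was 18.7 CPM in the truncated active line and 18.6 CPM in Col-0. The full-length active line averaged 3.60 CPM and dxo1-2 2.77 CPM. KTI1, a trypsin inhibitor, had 0 counts in every full-length library and in truncated active replicates 1 to 3. Its call and its bound of at least 37.7-fold higher came wholly from 56.0 CPM in replicate 4.

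Rapidly induced stress transcription factors rose. Of 20 tested, 14 were called higher and 1 lower, with a median of 1.62. ORA47, an activator of jasmonate synthesis genes, had 31.9, 25.1, 62.4 and 109 CPM in the truncated and 1.63, 3.26, 1.71 and 3.78 CPM in the full-length libraries (log2 fold change 4.4, SE 0.44, adjusted p = 1.88e-08). The zinc finger factor ZAT12 had 47.9, 41.7, 68.3 and 151 CPM in the truncated and 5.69, 7.87, 9.21 and 6.30 CPM in the full-length libraries (3.37). Both were highest in truncated active replicate 4, and neither overlapped between lines. WRKY46 rose by 2.89, ERF104 by 2.46 and ERF4 by 2.41 on the log2 scale, and ERF2 was the 1 member called lower (-1.12).

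Clock genes changed in both directions. The plant clock is a loop of morning factors (CCA1, LHY) and evening factors (TOC1, ELF4, LUX). Of 21 tested, 8 were called higher and 6 lower, with a median of 0.03. The morning factors were higher: LHY had 10.5, 6.28, 5.14 and 6.02 CPM in the truncated and 1.22, 1.09, 0.341 and 4.2 CPM in the full-length libraries (log2 fold change 2.06, adjusted p = 0.00567), and CCA1 rose by 1.75 (adjusted p = 0.0295). LNK3, of the family that acts with the morning factors, had 49.4, 37.0, 46.3 and 62.7 CPM in the truncated and 5.28, 5.16, 7.85 and 7.56 CPM in the full-length libraries (2.91, SE 0.28, adjusted p = 6.74e-09). LNK1 and LNK4 were also called higher (1.72 and 1.57). LNK2 (0.58, adjusted p = 0.382) and PRR7 (0.26, adjusted p = 0.782) were not called. Of the evening genes, some were lower: TOC1 had 26.9, 26.8, 24.2 and 27.7 CPM in the truncated and 78.0, 77.6, 77.8 and 60.9 CPM in the full-length libraries (-1.48). ELF4 fell by 2.46, FKF1 by 1.93 and LUX by 0.82 on the log2 scale, while GI (-0.13, adjusted p = 0.877), BOA (-0.99, adjusted p = 0.246), ELF3 (-0.39, adjusted p = 0.304) and PRR5 (-0.13, adjusted p = 0.872) were not called. COR27, a repressor that links cold and the circadian clock, fell furthest, to 2.49, 0.331, 3.67 and 4.22 CPM in the truncated libraries, against 151, 150, 183 and 128 CPM in the full-length libraries (-5.90, SE 0.47, adjusted p = 3.2e-10). The labels give no time of harvest, and its part in these values was not tested.

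Cold genes split between regulators and targets. The CBF factors bind the drought-responsive element and are known to induce the COR genes, whose products protect membranes and proteins in the cold. All 14 tested members were called, 3 higher and 11 lower, with a median of -2.40. The 3 that rose are the CBF factors: CBF2 had 20.0, 13.6, 20.2 and 41.0 CPM in the truncated and 3.66, 2.44, 3.07 and 2.1 CPM in the full-length libraries (log2 fold change 3.02, SE 0.49, adjusted p = 2.46e-05), and CBF1 and CBF3 rose by 1.56 and 1.31. The 11 that fell are target genes. COR47, a dehydrin, had 62.3, 57.2, 46.6 and 86.1 CPM in the truncated and 1472, 1221, 1008 and 918 CPM in the full-length libraries (-4.2, SE 0.28, adjusted p = 1e-11). RD29A, printed above with its 3 CBF motifs, had 20.4, 44.6, 8.08 and 13.3 CPM in the truncated and 424, 294, 197 and 274 CPM in the full-length libraries (-3.74). KIN2 fell by 2.68, ERD10 by 2.59 and COR15A by 2.2 on the log2 scale. KIN1 and LTI30 were carried apart by 1 library: truncated active replicate 4 had 132 CPM of KIN1 and 222 CPM of LTI30, against 4.99 to 8.6 and 8.27 to 8.98 CPM in the other truncated libraries and 92.4 to 141 and 166 to 243 CPM in the full-length libraries. Without that replicate 11 members were called lower, and the median was -2.96.

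The evening element core (AATATCT) was found in 14.8% of the promoters of genes called lower and 10.6% of those called higher, against 10.7% of all, and in 9 of 21 clock genes (42.9%). The drought-responsive element core was found in 14.7% of those called lower, 12.35% of those called higher and 13.4% of all, and in 5 of 14 cold genes (35.7%). The G-box (CACGTG) stood in 8.86% of the genes called lower, 8.08% of those called higher and 7.70% of all, and the W-box (TTGACC or TTGACT) in 28.9%, 26.4% and 27.8%. Both strands were searched. A match is a string of letters and no measured binding site.

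**Figure D3:**
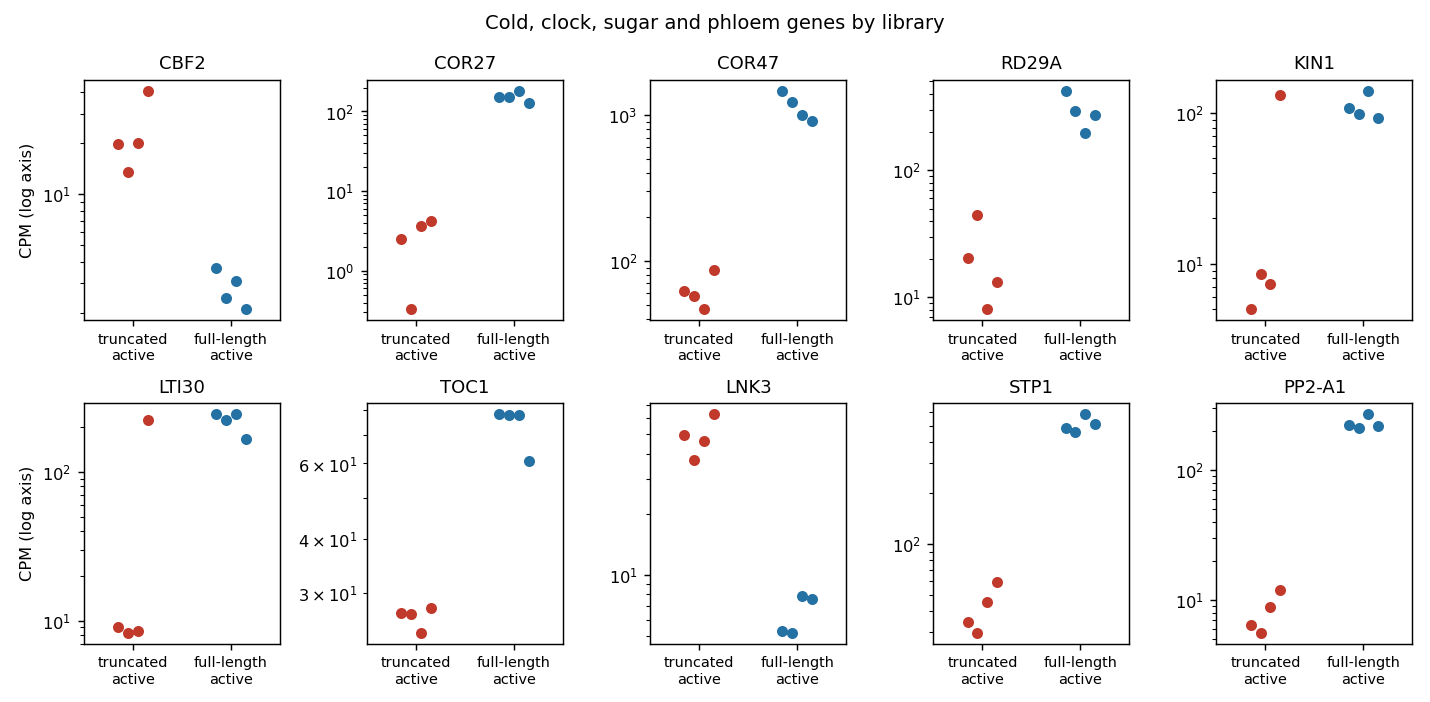
CPM on a log axis of 10 genes in each of the 4 truncated active and 4 full-length active libraries, 1 point a library. CBF2 and LNK3 lie higher and the other 8 genes lower in the truncated line, with truncated active replicate 4 among the full-length values for KIN1 and LTI30.

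Tested genes induced by lack of sugar were all lower. The 9 tested members, of 12 listed, were called lower, with no overlap between lines and a median of -2.55. DIN2, DIN9 and BCAT2 had too few counts to be tested. DRM1, a dormancy-associated gene, had 1.50, 0.331, 5.14 and 6.02 CPM in the truncated and 121, 131, 202 and 154 CPM in the full-length libraries (log2 fold change -5.62, SE 0.51, adjusted p = 3.43e-09). TPS10, a trehalose phosphate synthase homologue of class II, had 6.98, 11.2, 8.45 and 10.8 CPM in the truncated and 117, 118, 93.9 and 87.4 CPM in the full-length libraries (-3.46). KMD4 had the smallest fall of the group (-0.45). Outside that group, the hexose importer STP1 had 34.4, 29.8, 45.5 and 59.6 CPM in the truncated and 488, 456, 584 and 511 CPM in the full-length libraries (-3.60, SE 0.20, adjusted p = 5.88e-13). Its relative STP4 had 20.8 to 30.1 CPM in the truncated and 148 to 180 CPM in the full-length libraries (-2.68).

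In the phloem list, 10 of 18 listed genes had enough counts to be tested. Of these 10, 2 were called lower, 1 higher and 7 not, with a median of -0.16. PP2-A1, a lectin of the sieve element, had 6.48, 5.62, 8.81 and 12 CPM in the truncated and 221, 212, 268 and 218 CPM in the full-length libraries (log2 fold change -4.83, SE 0.24, adjusted p = 7.53e-14). The amino acid transporter AAP2, which acts along the transport phloem, had 11.0, 9.26, 9.91 and 10.8 CPM in the truncated and 109, 101, 110 and 96.2 CPM in the full-length libraries (-3.35). The defining companion cell marker SUC2, a sucrose transporter, averaged 116 ± 38.6 CPM in the truncated and 141 ± 20.5 CPM in the full-length line and was not called (adjusted p = 0.541). The member called higher was PP2-A2, of the same lectin family as PP2-A1, with 6.98, 3.97, 5.14 and 4.82 CPM in the truncated and 0, 1.09, 0.341 and 0.84 CPM in the full-length libraries (2.99, SE 0.67, adjusted p = 0.00112). The summed level of the list was 302 to 398 CPM in the truncated and 644 to 717 CPM in the full-length libraries. That difference lay mostly in 2 genes and does not describe the list: PP2-A1 averaged 8.24 CPM in the truncated and 229.7 CPM in the full-length line, and AAP2 10.2 CPM and 104 CPM. In whole plants, fewer cells of a type and less RNA per cell cannot be told apart.

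Wax and very-long-chain lipid genes fell, with 9 of 14 called lower, none higher and a median of -0.87. KCS6, the main elongation enzyme of stem and leaf wax, had 294, 237, 316 and 325 CPM in the truncated and 602, 675, 786 and 528 CPM in the full-length libraries (log2 fold change -1.14, SE 0.16, adjusted p = 4.5e-06). KCS1 fell by 1.62 on the log2 scale. WSD1, which makes wax esters, had 0 counts in the truncated and 5.12 to 8.42 CPM in the full-length libraries, at least 19.7-fold lower against the floor of 3 counts over the group.

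Iron genes included 7 called higher and 2 lower of 12 tested, from 17 listed, with a median of 1.45. The listed factors BHLH38, BHLH39, BHLH100 and BHLH101 had too few counts to be tested. AT2G30766, a small gene entered in the iron list, had 143, 72.1, 147 and 198 CPM in the truncated and 4.47, 4.34, 1.71 and 9.66 CPM in the full-length libraries (log2 fold change 4.81, SE 0.44, adjusted p = 4.24e-09). OPT3, a phloem iron transporter, had 277, 222, 246 and 214 CPM in the truncated and 74.0, 72.8, 50.2 and 73.5 CPM in the full-length libraries (1.83). NAS4, which makes the chelator nicotianamine, and the factor PYE rose by 1.53 and 1.69 on the log2 scale, while 2 ferritin genes, for iron storage, were the members called lower.

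Tested genes in 2 branches of secondary metabolism were mostly higher. Of 12 genes of aliphatic glucosinolate synthesis, 9 were called higher and none lower, with a median of 1.12. The sulfotransferase SOT17 had 58.4, 47.9, 50.7 and 42.2 CPM in the truncated and 18.3, 15.2, 9.90 and 9.24 CPM in the full-length libraries (log2 fold change 1.91, SE 0.24, adjusted p = 4.71e-07). The indole and camalexin branch had 2 called higher and 1 lower of 11. Those counts lie near the 17.4% of all genes called higher and 12.5% called lower, and are no result about that branch. Of 14 listed flavonoid genes only 5 had enough counts to be tested, and 4 of these were called higher. DFR, LDOX, PAP1 and PAP2 are among those not tested, so the values do not describe the whole branch. CHS, chalcone synthase, had 248, 320, 142 and 54.8 CPM in the truncated and 27.2, 14.7, 12.3 and 20.6 CPM in the full-length libraries (3.37), and FLS1, flavonol synthase, rose by 2.52. The repressor MYBL2 was the 1 member called lower (-1.03).

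Abscisic acid receptors and phosphatases gave 4 called higher and none lower of 15, all receptors, with a median of 0.02. PYL1 rose by 1.22, PYL8 by 0.95 and PYL4 by 0.78 on the log2 scale. Of 6 senescence genes 1 was called higher and 3 lower, of 4 cell cycle genes 1 higher (TSO2, a ribonucleotide reductase subunit, 1.16), and among 3 tau glutathione transferases and 1 tested heat shock gene edgeR called none, 0 at an unadjusted p under 0.05. DESeq2 called 1 of 9 tau glutathione transferases, lower. SAG13 carried the senescence rise with 118 CPM in truncated active replicate 4 and 6.48 to 17.6 CPM in the others. Of the guard cell markers, 4 of 5 were tested and MYB60 was called higher (1.39), at a summed level of 25.3 to 48.3 CPM in the truncated and 27.3 to 40.3 CPM in the full-length libraries. The root markers SCR and SHR were called higher (0.76 and 0.82), and no flower organ marker passed the filter on low counts.

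Seed storage protein and oleosin genes were higher in the truncated line, with 8 of 8 tested called higher of 11 listed and a median of 2.91. Their summed level was 58.9 to 140 CPM in the truncated active and 4.44 to 15.2 CPM in the full-length active libraries. SESA5, a 2S albumin, had 13.5, 12.6, 14.7 and 15.7 CPM in the truncated and 1.22, 0.814, 0 and 0.84 CPM in the full-length libraries (log2 fold change 4.21, SE 0.54, adjusted p = 9.59e-07). Col-0, at 12.9 to 17.3 CPM, lay with the truncated line for this gene. These genes are known from seeds, and the copies of SESA genes are alike in sequence.

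The same truncation in the substituted protein, and the loss of DXO1 itself, share no library with the comparison described so far. Their calls come from the same fit, with a spread estimated over all 6 groups, so the lists are not fully independent. Abundant genes were called more often. In the active truncation 10.5% were called higher in the lowest and 26.3% in the highest of 4 classes of mean CPM. The backgrounds given here do not allow for this. Truncated substituted against full-length substituted gave 4104 calls (30.2%), and dxo1-2 against Col-0 gave 3072 (22.6%). Of the 2364 genes higher in the truncated active line, 1630 were also called higher with the substituted protein, which is 69.0% of the first list (background 17.6%) and 68.3% of the second (background 17.4%). With dxo1-2 against Col-0 the shared genes were 1499, or 63.4% of the first list (background 14.7%) and 75.2% of the second (background 17.4%). Of the 1694 lower genes, 898 were shared with the substituted truncation, or 53.0% of the first list (background 12.6%) and 52.3% of the second (background 12.5%). With the mutant 698 were shared, or 41.2% (background 7.93%) and 64.7% (background 12.5%). Genes called in opposite directions numbered 36 and 9. Across 13592 genes the log2 fold changes correlated with r = 0.72 and 0.74, a description across genes, which are not independent replicates.

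**Figure D4:**
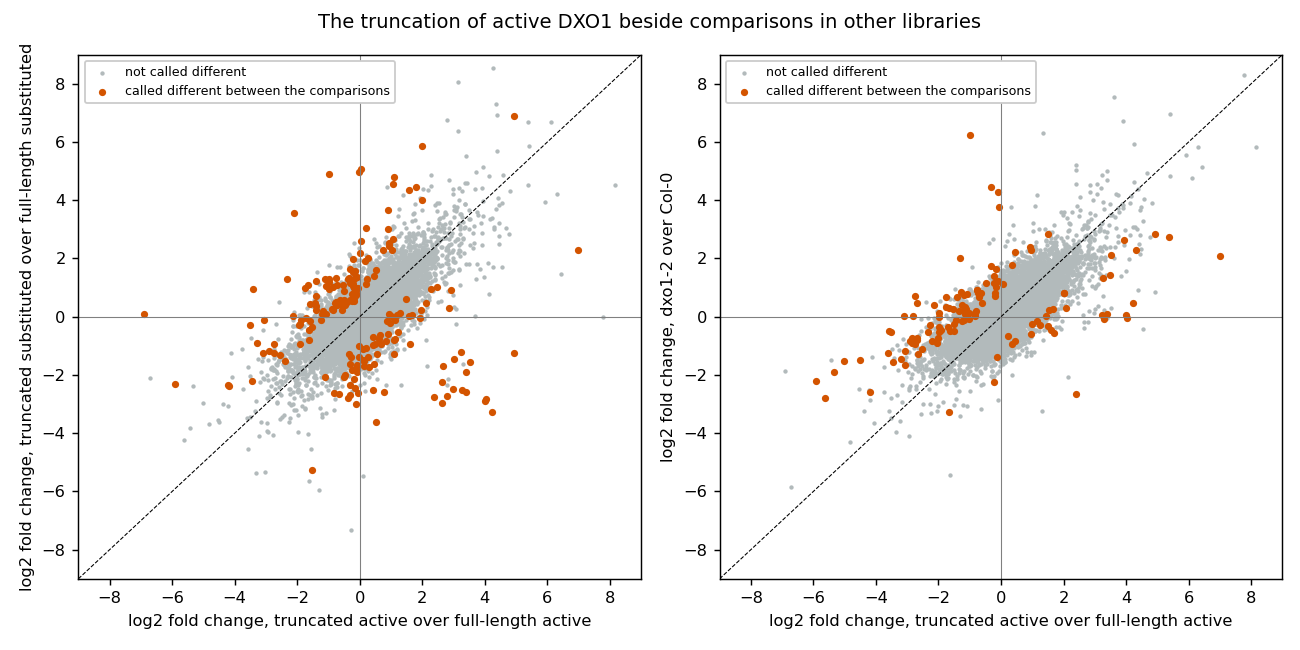
Log2 fold change of each tested gene in the truncated active over the full-length active line, against the same in the truncated substituted over the full-length substituted line and in dxo1-2 over Col-0; orange points are genes called in the test of the difference. The clouds run along the diagonal with r = 0.72 and 0.74, and 196 and 123 genes are orange.

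The median size of the change over the 4058 called genes was 1.15 on the log2 scale. Their median change in the same direction was 0.90 in the substituted truncation and 0.82 in dxo1-2 over Col-0, where genes chosen for their change in 1 comparison tend to be smaller in another. The ribosomal medians stood close together: large-subunit genes had 1.47, 1.45 and 1.37, and small-subunit genes 1.25, 1.28 and 1.20, in the active truncation, the substituted truncation and the mutant in this order. FIB1 was higher by 2.23, 1.84 and 1.50 in that order, and GUN4 by 2.08, 1.66 and 1.94. Cold genes had medians of -2.40, -1.55 and -1.69, with 3 called higher and 11 lower in each. The photosynthesis medians were -0.52, -0.44 and -0.60. The rank correlation with exon length also varied over the groups of the other comparisons. It was -0.59 to 0.01 in the truncated and -0.22 to 0.54 in the full-length substituted libraries. In dxo1-2 it was -0.57 to 0.23 and in Col-0 -0.06 to 0.36. With the length trend removed, 94.3%, 90.5% and 85.7% of the calls remained, in the order above. The part of exon length in the shared changes was not tested.

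The test of the difference between the 2 truncations called 196 genes (1.44%), 82 with a more positive change in the active truncation (0.603%) and 114 with a more negative one (0.839%). The test between the active truncation and the loss of DXO1 called 123 (0.905%), of which 34 had a more positive change in the active truncation (0.25%) and 89 a more negative one (0.655%). Of the 4058 genes, these tests called 123 and 102. COR27 was lower by 5.90 in the active truncation, by 2.31 in the substituted truncation and by 2.21 in dxo1-2, and both differences were called (adjusted p = 0.00132 and 0.00137). CBF1 rose less in the active than in the substituted truncation (1.56 and 4.35, adjusted p = 0.0393). TPS10 fell by 3.46, 2.22 and 1.55 and differed in both tests (adjusted p = 0.0407 and 0.00137).

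Seed storage genes took the opposite sign in the substituted truncation, with a median of -2.28, and had a median of 0.07 in dxo1-2 over Col-0. Of the 8, 7 were called in the test between the truncations and 3 in that against the mutant. SESA5 had 1.76, 0.298, 0.494 and 0 CPM in the truncated substituted and 5.12, 15.2, 1.67 and 5.50 CPM in the full-length substituted libraries. SADHU3-2, of a family of retroposons with several copies, had 21.4, 19.5, 28.3 and 36.1 CPM in the truncated active and 53.2, 51.0, 59.0 and 44.1 CPM in the full-length active libraries. It had 47.5 to 91.2 CPM in the truncated substituted and 0 to 4.45 CPM in the full-length substituted libraries, and 12.4 to 24.5 CPM in dxo1-2 and 0 to 0.473 CPM in Col-0. Of the 6 groups, Col-0 and the full-length substituted line were thus low and the others high, and the truncation went with a fall in the active pair (-0.99) and a rise in the substituted pair (4.92). PYL4 followed a pattern set by 1 group, with 105 to 142 CPM in the full-length substituted libraries and 9.07 to 39.3 CPM in all other libraries. For XTH25, a cell wall enzyme, the log2 fold change was -1.53 in the active and -5.25 in the substituted truncation (adjusted p of the difference = 0.000273).

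For the sugar starvation genes the medians were -2.55 in the active truncation, -1.44 in the substituted truncation and -0.67 in dxo1-2 over Col-0, and 1 of the 9 was called in the test between the truncations and 4 in that against the mutant. STP1 fell by 3.60 and 3.49 in the 2 truncations and by 1.24 in dxo1-2 (adjusted p of the difference from the mutant = 1.01e-05). The full-length active line had 456 to 584 CPM and Col-0 385 to 477 CPM, while the truncated active libraries, at 29.8 to 59.6 CPM, lay below dxo1-2 at 159 to 206 CPM. KCS12, a very-long-chain fatty acid enzyme, had 12.5 to 30.7 CPM in the truncated and 103 to 163 CPM in the full-length active libraries, against 40.1 to 63.4 CPM in dxo1-2 and 49.2 to 63.4 CPM in Col-0 (-2.82 and 0.03, adjusted p of the difference = 2.49e-05). Jasmonate synthesis genes had a median of -0.84 in the active truncation and -1.66 in dxo1-2 over Col-0, and 1 of 13 was called in that test. OPR3 fell by 1.87 in the active truncation and by 1.95 in dxo1-2 and changed by -0.12 in the substituted truncation, a difference between the 2 truncations that was called (adjusted p = 0.00212).

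**Figure D5:**
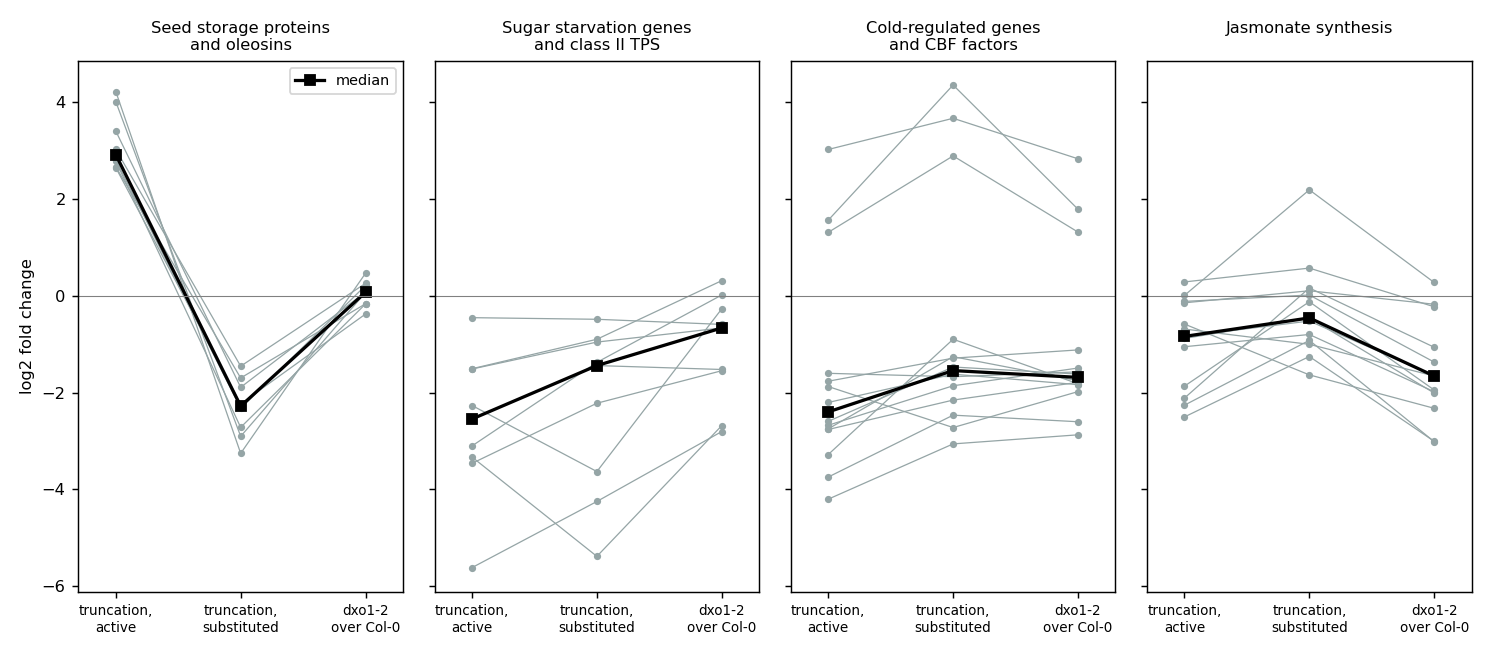
Log2 fold change of each tested member of the seed storage, sugar starvation, cold and jasmonate synthesis groups in the active truncation, the substituted truncation and dxo1-2 over Col-0, 1 point a gene. The seed group has medians of 2.91, -2.28 and 0.07, and the cold group -2.40, -1.55 and -1.69.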

How the data were processed

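Titles gave each library its group and number. The authors deposited raw counts, whole numbers for each gene, in a table for every library. Reads were aligned with STAR 2.7.8a to TAIR10 and DESeq2 was used, per the submitters' processing notes. The counting tool, the annotation, the use of strand and the collapsing of molecular identifiers are not given in the sources used here, so overlapping and antisense genes cannot be separated, and intervals cover counting error only. Gene names and promoters came from RefSeq on TAIR10.1.

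Counts of all 24 libraries entered 1 fit in edgeR 4.0.16 (R 4.3.3; TMM, filterByExpr by group, glmQLFit, glmQLFTest), which kept 13592 genes, and p-values were adjusted by Benjamini-Hochberg over all of them. Contrasts were the 2 truncations, dxo1-2 over Col-0, and the differences of the active truncation from the other 2. Fold bounds used a floor of 3 counts over a group. The chloroplast share was compared with an exact permutation test. The fit was tested on simulated data. Total counts ran from 1270033 to 3490594, and 0 pairs of libraries were identical.

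Named genes are the 12 highest and 12 lowest fold changes among called genes without overlap and averaging 20 counts or more in whichever group was higher, up to 4 called members of each list and its most abundant member, DXO1, and the 4 smallest p-values of each test of a difference. Other list members are named with their values. Members and lists were chosen with earlier results of these data known. Alternatives were DESeq2 1.42.0, its size factors in edgeR, no filter, a minimum of 10 counts in each library, a fit of the compared libraries, organelle genes left out, a replicate block, the length trend removed by a lowess of span 0.3, and leaving out each library. Leaving out truncated active replicates 2 and 4 together was added after the data were seen.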

Additional observations from a re-analysis of the deposited data

Results flagged for a closer look

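For some genes 1 of 4 libraries stood apart from the rest of its group, measured as its gap to the nearest other library over the range of the group, above Dixon's 95% critical value. Chance flags about 1 in 20 groups. Each reported gene was screened in both lines, so part of the flags below is to be expected by chance. In the truncated active line every such library was replicate 4. It was the highest for KTI1 (gap over range 1), LTI30 (0.997), KIN1 (0.972), WRKY46 (0.916), JAZ10 (0.91), COR15A (0.9), SAG13 (0.9) and CBF1 (0.847), and the lowest for MYBL2 (0.903), RBCS1A (0.885) and CRD1 (0.868). COR15A stood at 927 CPM there and at 193 to 267 CPM in the others. In the full-length active line replicate 3 stood highest for LHCA2 (0.881), AT2G33830 (0.873), PSBW (0.867), PP2-A1 (0.841) and AT2G06185 (1, at 0.683 CPM against 0) and lowest for OPT3 (0.949). Replicate 4 was lowest for TOC1 (0.976), replicate 2 highest for WSD1 (0.896) and AT2G21220 (1), and replicate 1 highest for AT2G15020 (1). The values of AT2G06185, AT2G21220 and AT2G15020 rest on 1 or 2 counts.

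The truncation of the active protein differed from that of the substituted protein, by the edgeR test of the difference, for 19 of the genes reported. The seed genes SESA5 (adjusted p = 7.52e-06), SESA3 (0.000549) and CRU3 (0.00331) rose with the active truncation and had lower means after the substituted one. The other genes were SADHU3-2 (1.59e-07), PYL4 (1.85e-06), XTH25 (0.000273), COR27 (0.00132), EXPA16 (0.0014), OPR3 (0.00212), AT2G15020 (0.00226), VSP2 (0.00339), LNK3 (0.00343), XTH31 (0.00488), ATCG00120 (0.00713), CRK41 (0.0102), MYB74 (0.0174), CBF1 (0.0393), TPS10 (0.0407) and WRKY54 (0.0454).

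It differed from the loss of DXO1 for 20 of the genes reported. These were SADHU3-2 (9.63e-06), STP1 (1.01e-05), KCS12 (2.49e-05), STP4 (0.00035), XTH31 (0.000664), COR27 (0.00137), TPS10 (0.00137), AT4G33980 (0.00306), CRK41 (0.00307), WRKY54 (0.00307), EXPA16 (0.00445), SESA5 (0.00445), AT2G33830 (0.00473), AT2G15020 (0.00646), ELIP1 (0.00675), VSP2 (0.0101), DRM1 (0.0364), SESA3 (0.0378), ATCG00120 (0.0404) and SARD1 (0.0451). WRKY54 rose by 1.49 with the active truncation and by 2.83 in dxo1-2, and AT4G33980, a relative of COR27, changed by -3.59 and -0.47. VSP2 took opposite signs, with 2.39 in the active truncation, -2.76 in the substituted truncation and -2.67 in dxo1-2 over Col-0.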

How the results depend on the processing

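Calls between the 2 active lines numbered 3202 to 4847 over all settings, 3421 to 3977 with 1 library left out, 3235 without truncated active replicates 2 and 4, 4847 with the length trend removed and 4198 by DESeq2. The replicate numbers did not pair the libraries (correlations of same-numbered deviations 0.22, -0.02, 0.27 and -0.15). With a replicate block there were 4245 calls. Genes called higher were 58.3% of all calls, against 65.1% without a count filter and 53.2% with the length trend removed (2580 higher, 2267 lower). The 196 genes that differed between the truncations became 354 by DESeq2, 399 with the length trend removed and 114 to 352 with 1 library left out (114 without full-length active 2, 352 without full-length substituted 3). The 123 genes that differed from the loss of DXO1 became 230 by DESeq2, 284 with the length trend removed and 59 to 247 with 1 library left out (59 without truncated active 1, 247 without truncated active 4). The share of positive differences was 41.8% of the 196 and 54.5% with no filter, and 27.6% of the 123 and 41.7% by DESeq2. The cause of these shifts was not tested. DXO1 and the chloroplast share kept their direction and call wherever they had a value. DXO1 had none at a minimum of 10 counts in every library.

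Of 34 gene groups, 21 had a median that moved by more than the spread between libraries in at least 1 setting, in 50 of 568 values, and 2 whose median lay beyond that spread changed sign. The median of the 6 small RNA genes was 0.50 and became -0.0468 in a fit of the compared libraries, and that of the 4 cell cycle genes was 0.28 and became -0.24 by DESeq2 and -0.20 with no filter. Of 165 named genes, 18 lost their call and 4 gained one in at least 1 setting, and 0 changed sign, in 2806 values over all settings. Those that lost it with 1 library left out include CYP71A13 and ALD1 (without truncated active 4), PYL4, SCR and SHR. Genes with few counts are limited by depth.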
